A study of Mus musculus with 36 samples.

Results

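The comparison described here sets RNA made 150-180 min after a change of medium against RNA made 30-60 min after it, in NIH-3T3, a fibroblast line derived from mouse embryos. Its members were chosen by their labels: the 3 arrays of mock cells labelled over 150-180 min and the 3 arrays of mock cells labelled over 30-60 min, which are 6 of the 36 arrays of the series, read over all 9538 genes tested. Cells of passages 5 to 15 after thawing were split 24 h earlier and had reached 80% confluency when prewarmed fresh medium was applied at time 0. Mock means that this medium held no interferon; the other groups of the series received 100 U/ml IFN alpha or IFN gamma in it. Both groups compared here were given 500 µM 4-thiouridine (4sU) for 30 min, from 30 to 60 min with harvest at 60 min, or from 150 to 180 min with harvest at 180 min. The 0-60 min groups, labelled for 60 min with 200 µM 4sU, are not compared here but enter the pooled spread described below. All groups of the series had the medium change, and all 6 arrays come from 1 cell line. The labels number the arrays but do not state whether each had a culture of its own. The spread behind each p-value and SE of the main fit is that between arrays of the same group, pooled over all 36 arrays of the series. It may therefore be technical.

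4sU is a nucleoside that cells build into RNA while it is present, which allows that RNA to be separated from older RNA, so the signal follows what was transcribed in the window. Fresh serum-containing medium acts on growth factor receptors and, through MAP kinase signalling, switches on the immediate-early genes, whose transcription needs no newly made protein. Many of them code for transcription factors, others for phosphatases and mRNA decay proteins that shut the same response, and in fibroblasts the wave is known to be brief. In RNA from a whole culture, fewer cells that make a transcript and less of it per cell cannot be told apart.

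The 30-60 min arrays stood apart from the other mock arrays described here in some measures of the whole array. On the first principal component of all 36 arrays (43.5% of the variance) the mock 30-60 min arrays lay at 52.5, 55.7 and 58.1, the mock 150-180 min arrays at -47.1, -44.3 and -35.5, and the mock arrays of the first window, 0-30 min, at -36, -30.4 and -24.2. The median log2 signal of the tested genes was 6.53 to 6.57 in the 30-60 min arrays, 7.09 to 7.19 in the 150-180 min arrays and 7.08 to 7.17 in the 0-30 min arrays, although the median over all probe sets was equal by construction. The bioC hybridisation control, a spike added before hybridisation, read 10.28, 9.22 and 7.66 in the 30-60 min arrays and 6.68 to 6.86 in the 150-180 min arrays. Probe sets for the B2 repeat averaged 9.88 to 10.63 against 8.96 to 9.13, while the log2 difference between the 3′ and 5′ Actb probe sets overlapped, at 1.14 to 1.98 against 1.19 to 1.45, as did the poly-A spikes, at 7.03 to 12.37 against 8.15 to 8.54. The part of these measures in the results below was not tested. Within a group, pairs of arrays had correlations over genes of 0.973 to 0.986 at 30-60 min and 0.988 to 0.995 at 150-180 min, with a median SD per gene of 0.208 and 0.144. All 10 fibroblast markers on the array passed the filter on low values, 0 of 8 epithelial and 0 of 8 endothelial markers did, and 2 of 11 macrophage and 2 of 10 adipocyte and muscle markers did.

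Between 30-60 and 150-180 min the immediate-early wave fell and most other named genes rose. As scaled here, with each array shifted to a common median over all probe sets, 5231 of the 9538 genes (54.8%) were higher and 978 (10.3%) lower at 150-180 min by limma's test at a Benjamini-Hochberg adjusted p under 0.05, together 6209 or 65.1%. The median log2 difference over all genes tested was 0.58, so a gene at 0.58 moved like the typical gene. When each array was instead centred on the tested genes, an alternative chosen after seeing the data, the median was -0.03, and 2439 genes (25.6%) were higher and 2709 (28.4%) lower, together 54%. The share of higher genes among those called thus went from 84.2% to 47.4%. All 978 falls stayed called under this centring and 2439 rises did, while 10 genes called higher turned to called lower. "Rose" and "fell" below refer to the test as scaled, and the count after centring on the tested genes follows for each group. Each count is to be read against the shares of all genes, 54.8% higher and 10.3% lower as scaled. After centring these shares were 25.6% and 28.4%. A fall of at least 2-fold was called for 442 genes and a rise of that size for 2821; at 4-fold the counts were 105 and 348. The 3 arrays of one window lay wholly above or below the 3 of the other for 6935 genes (72.7%), above for 60.1% and below for 12.6%.

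**Figure D1:**
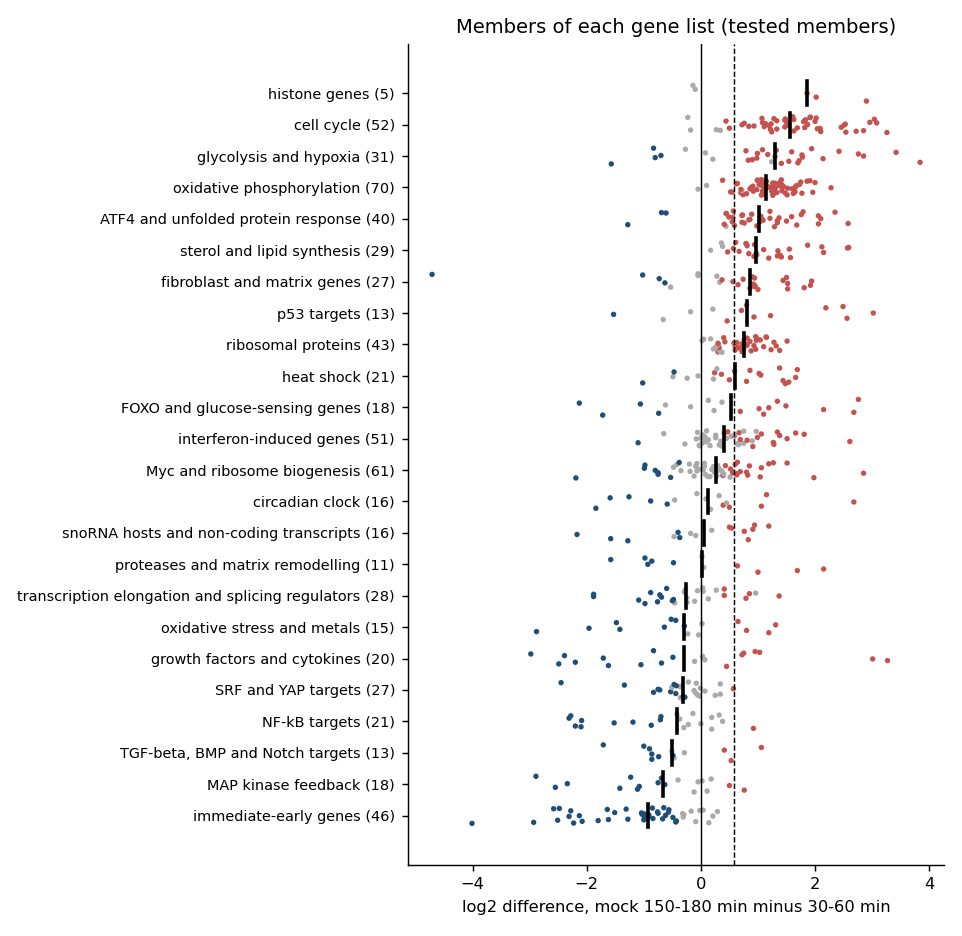
Log2 difference (x axis, 150-180 min minus 30-60 min, mock) of each tested member of the gene lists (y axis, number of tested members in brackets); red points were called higher, blue points called lower, grey points not called, black bars mark the list median, the solid line marks 0 and the dashed line the median of all genes, 0.58. Immediate-early genes lie lowest with a median of -0.92, and cell cycle genes have a median of 1.56.

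Immediate-early genes fell as a group. Of 46 tested members 36 fell and 0 rose, against 10.3% and 54.8% of all genes, and the median difference was -0.92; after centring 41 were lower and 0 higher. Among the AP-1 subunits, which pair with each other to bind DNA, 7 of 8 fell. Junb read 10.31, 11.59 and 11.56 at 30-60 min and 8.6, 8.65 and 9.28 at 150-180 min. The windows did not overlap, and Junb fell by 2.31 ± 0.32 on the log2 scale (SE, n = 3 per group; 4.95-fold lower, adjusted p = 3.7e-07). Fos, the founding partner of Jun, read 12.3, 12.4 and 12.61 and then 11.21, 11.51 and 11.58, a fall of 2.01-fold (adjusted p = 0.00043). Jun itself fell 1.89-fold, while Jund, a subunit present in resting cells, gave 0.21 ± 0.3 (adjusted p = 0.55). Fosb fell 3.07-fold, but its arrays overlapped, at 4.72, 6 and 5.73 against 2.29, 4.38 and 4.92, and without replicate 1 of 150-180 min it was not called (-0.83, adjusted p = 0.1).

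The list held 13 other tested transcription factors and cofactors: the Egr and Klf zinc-finger proteins, Srf, Myc, small Maf proteins, Csrnp1 and Nab2. Of these 12 fell, the exception being Klf6 (-0.3 ± 0.21), and after centring all 13 were lower. Egr2, a zinc-finger factor, read 12.4, 12.06 and 12.32 at 30-60 min and 10.62, 10.38 and 10.39 at 150-180 min. Its windows lay apart by more than a log2 unit, and the difference was -1.8 ± 0.19 (3.48-fold lower, adjusted p = 2.2e-09). Egr1, a close relative, was at 13.54 to 13.63 and later 13.06 to 13.22, apart as well, and fell 1.35-fold. Myc, a driver of growth genes, read 11.67, 11.88 and 12.21 and later 11.04, 10.9 and 11.57, a fall of 1.68-fold (adjusted p = 0.0021). The 3 orphan nuclear receptors of the Nr4a family fell, Nr4a1 from 12.91, 13 and 12.94 to 11.25, 11.69 and 11.38 (2.85-fold, adjusted p = 3.3e-11).

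Proteins that destabilise mRNA belong to the same wave, and 4 of 5 fell. Btg2, which recruits the deadenylase complex, read 12.11, 12.41 and 12.68 at 30-60 min and 9.08, 9.2 and 10.14 at 150-180 min, 7.6-fold lower (adjusted p = 2.3e-11). Arc, known from neurons as a plasticity gene, read 7.16, 8.7 and 8.23 and later 3.5, 4.18 and 4.38, which is near background, and fell 16.1-fold (adjusted p = 1.3e-09). Npas4, another activity-dependent factor known from neurons, was among the 15 largest falls of all genes, from 9.92, 9.75 and 9.95 to 5.7, 5.95 and 5.1 (19.6-fold, adjusted p = 4.4e-15). Not every member came down. Plk2 (-0.17 ± 0.23), Mcl1 (-0.32 ± 0.2) and Rgs2 (-0.02 ± 0.16) did not pass the test as scaled, and all 3 were lower after centring, whereas Rhob (0.04 ± 0.34), Pim1 and Btg1 were not called under either scaling; both other probe sets of Btg1 were called lower.

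The serum response factor SRF binds a sequence named the CArG box, and 4 promoters that hold it are shown because their genes fell: the 3 immediate-early genes in which it was found, and Vcl, which had the largest fall among the SRF and YAP targets. They are the 250 bases before the start in RefSeq (build GRCm38.p6), written on the strand of the gene with CArG boxes in capitals: Egr2 at chr10:67537316-67537565 (plus strand), Srf at chr17:46556163-46556412 (minus strand), Zfp36 at chr7:28379229-28379478 (minus strand) and Vcl at chr14:20929148-20929397 (plus strand).
Egr2: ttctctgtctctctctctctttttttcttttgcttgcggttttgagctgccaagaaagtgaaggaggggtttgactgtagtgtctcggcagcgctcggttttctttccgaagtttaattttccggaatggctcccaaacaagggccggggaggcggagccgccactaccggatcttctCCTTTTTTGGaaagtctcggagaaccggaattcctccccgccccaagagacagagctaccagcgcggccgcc
Srf: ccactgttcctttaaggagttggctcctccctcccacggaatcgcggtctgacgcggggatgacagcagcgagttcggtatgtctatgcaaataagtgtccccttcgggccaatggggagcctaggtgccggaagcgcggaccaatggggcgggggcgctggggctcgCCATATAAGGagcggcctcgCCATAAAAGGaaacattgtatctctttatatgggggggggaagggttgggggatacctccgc
Zfp36: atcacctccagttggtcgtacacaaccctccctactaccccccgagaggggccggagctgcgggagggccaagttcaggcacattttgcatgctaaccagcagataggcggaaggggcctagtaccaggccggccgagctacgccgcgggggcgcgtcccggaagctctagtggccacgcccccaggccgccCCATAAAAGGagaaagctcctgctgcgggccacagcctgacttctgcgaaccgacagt
Vcl: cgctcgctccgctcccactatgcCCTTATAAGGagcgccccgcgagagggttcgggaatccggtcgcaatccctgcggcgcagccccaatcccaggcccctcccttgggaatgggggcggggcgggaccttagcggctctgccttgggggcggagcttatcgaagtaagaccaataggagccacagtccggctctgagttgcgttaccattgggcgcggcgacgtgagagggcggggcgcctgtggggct
Srf, which codes for the factor itself, holds 2 CArG boxes, starting at -82 and -62 from the start. Its signal was 8.88, 9.18 and 8.98 at 30-60 min and 7.83, 7.73 and 7.55 at 150-180 min, a fall of 2.47-fold (adjusted p = 3.8e-09). Zfp36, an mRNA decay factor, holds 1 at -58 and read 10.64, 11.32 and 11.57 and later 8.75, 8.41 and 8.94 (5.58-fold lower, adjusted p = 6.7e-10). The Egr2 promoter shown holds 1 at -72. The promoters of 3 further Egr2 starts downstream overlap each other and all hold the same 1 further box. Both strands were searched, and a box was found in 3 of the 35 immediate-early genes with a promoter in the table (8.57%), in 7 of 22 SRF and YAP targets (31.8%; of these Fhl1, at -0.12, and Myl9, at -0.36, were not called), in 2.53% of 752 genes called lower, in 1.04% of 4322 called higher, and in 1.42% of all 7803 tested genes with a promoter. Over all 32851 promoters of the table the share was 1.47%. A match is a description of these letters, not a shown binding site.

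**Figure D2:**
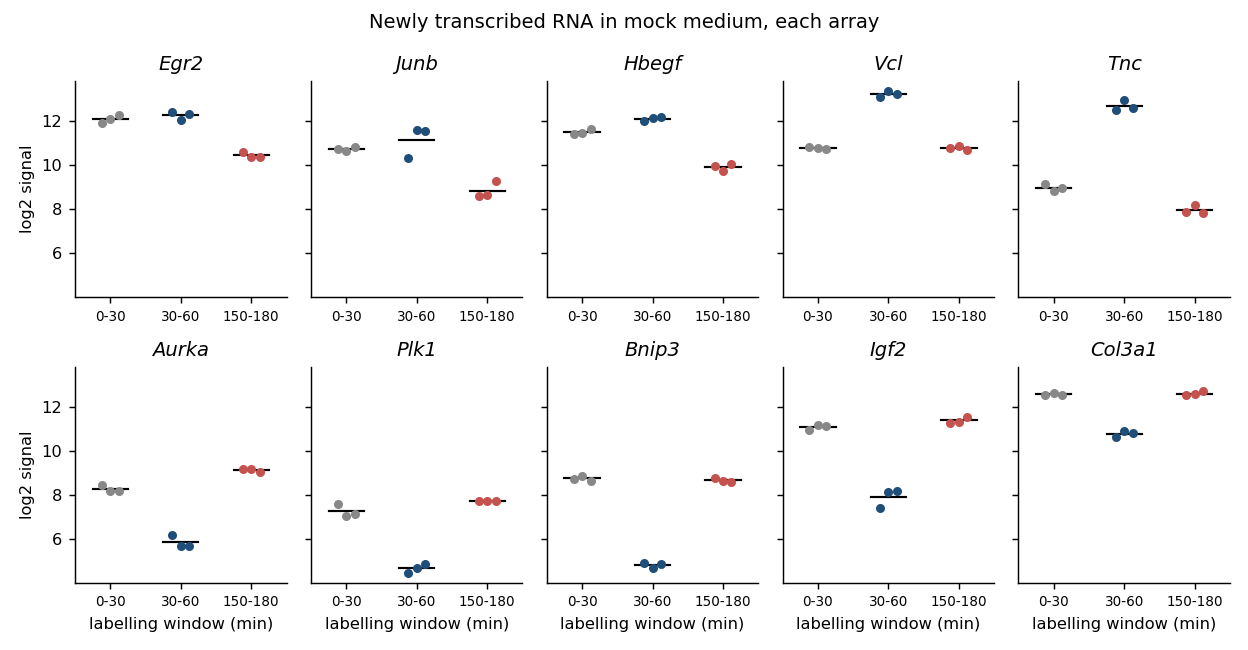
Log2 signal (y axis) of 10 genes in each mock array by labelling window (x axis, min after fresh medium; 3 arrays per window); points are arrays and bars are means. For Egr2, Junb, Hbegf, Vcl and Tnc the 30-60 min arrays lie above the 150-180 min arrays, and for Aurka, Plk1, Bnip3, Igf2 and Col3a1 they lie lower; Vcl and Col3a1 are at nearly the same level at 150-180 min as at 0-30 min, whereas Egr2, Junb and Hbegf are lower.

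The feedback inhibitors of MAP kinase signalling followed. Of 18 tested genes 10 fell and 2 rose, with a median of -0.66; after centring 14 were lower and 0 higher. Spry4, a Sprouty inhibitor of receptor signalling, read 8.74, 9.01 and 8.46 at 30-60 min and 5.93, 6.06 and 5.55 at 150-180 min, 7.4-fold lower (adjusted p = 2.3e-10). Dusp5, a phosphatase of ERK in the nucleus, read 12.12, 12.38 and 12.51 and later 9.51, 9.5 and 10.35 (5.86-fold lower, adjusted p = 5.3e-12). Dusp6, the cytoplasmic ERK phosphatase, fell 2.12-fold and the ETS factor Etv4 5.05-fold, though the single other probe set of Etv4 was not called. Dusp1, a phosphatase with a broader range, was at 11.99, 12.01 and 12.54 and then 11.85, 12.02 and 12.32. The windows overlapped, with a difference of -0.12 ± 0.24 (adjusted p = 0.68), but after centring Dusp1 was called lower (-0.72). Dusp14 rose by 0.76 ± 0.26 and Dusp8 by 0.5 ± 0.21, near the median of all genes, and after centring neither was called and Dusp8 was at -0.1. The call of Dusp8 was also lost without replicate 1 or 2 of 150-180 min or replicate 1 or 3 of 30-60 min (adjusted p = 0.07 to 0.19).

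Secreted signals divided. Of 20 growth factor and cytokine genes 10 fell and 7 rose (median -0.3; after centring 11 lower and 3 higher). Both tested ligands of the EGF receptor fell: Hbegf read 12, 12.14 and 12.2 at 30-60 min and 9.95, 9.75 and 10.04 at 150-180 min (4.6-fold lower, adjusted p = 7.5e-16), and Ereg 12.75, 13.04 and 13.06 and later 10.3, 10.23 and 10.84 (5.62-fold lower, adjusted p = 3.8e-11). Each window was tight and the windows were far apart. Lif, a cytokine of the interleukin-6 family, fell from 9.97, 11.2 and 11.02 to 8, 8.45 and 8.55 (5.24-fold). Tgfb1 fell 7.87-fold to background, at 2.69 to 2.7 in the later window, but its other probe set (-0.41) was not called. The insulin-like growth factors went the other way. Igf1 read 2.88, 2.82 and 2.87, under the filter at log2 4, and later 6.28, 6.16 and 5.94 (9.62-fold higher, adjusted p = 7.7e-15), so its fold is over background. Igf2 read 7.43, 8.13 and 8.18 and later 11.28, 11.32 and 11.53 (11-fold higher, adjusted p = 3.8e-13); the other Igf2 probe set, at 0.68, was not called. Il15, a cytokine of lymphocytes, rose 8.04-fold from below the filter, at 2.46 to 2.73.

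Targets of NF-kB, the inflammatory transcription factor, fell in 10 of 21 tested genes and rose in 1 (median -0.42; after centring 16 lower and 0 higher). Relb, a subunit, read 7.88, 8.66 and 8.5 and later 6.15, 6.06 and 5.9 (4.96-fold lower, adjusted p = 9.8e-09). Tnfaip3, the A20 inhibitor of the pathway, fell 4.86-fold, from 8.77, 8.8 and 9.03 to 6.7, 6.48 and 6.59, and the chemokine gene Ccl7 4.59-fold. Birc2, an inhibitor of apoptosis, was the member that rose (0.92 ± 0.23), and after centring it was not called. The prostaglandin synthase gene Ptgs2, at 13.9 to 14.02 in the earlier window, fell 1.4-fold.

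Genes of the actin cytoskeleton that SRF and YAP are known to drive behaved unevenly. In this list of 27 tested genes 11 fell and 1 rose (median -0.31; after centring 22 lower and 0 higher), 9 of the 11 falls being among the 18 actin and actin-binding genes. Vcl, which codes for the focal adhesion protein vinculin and whose promoter is shown above with a CArG box at -227, read 13.1, 13.37 and 13.22 at 30-60 min and 10.78, 10.87 and 10.7 at 150-180 min. This is a fall of 2.45 ± 0.13 (5.46-fold, adjusted p = 4.3e-15), and the later level was that of the 0-30 min arrays, 10.83, 10.76 and 10.75. Acta2, smooth muscle actin, gave -0.36 ± 0.18 (adjusted p = 0.07), and 1 of its 2 other probe sets was called lower. Acta2 was called at -0.46 without replicate 2 of 150-180 min and at -0.52 without replicate 1 of 30-60 min. Ankrd1, a YAP target, gave -0.06 ± 0.17 (adjusted p = 0.78). After centring Acta2 and Ankrd1 were called lower, at -0.97 and -0.66. Actb fell 1.21-fold with overlapping arrays, 13.42, 13.4 and 13.57 against 13.05, 13.06 and 13.44, and was not called (adjusted p = 0.054 to 0.17) without replicate 1 or 2 of 150-180 min or replicate 1 or 3 of 30-60 min. Flna, filamin A, was called higher (0.57 ± 0.2), at the median of all genes, and was at -0.04 after centring; it lost the call without replicate 2 of 150-180 min (0.5) or replicate 1 of 30-60 min (0.48). Pdlim5, Palld and Tnc, cytoskeletal and matrix genes outside this list, were among the 15 largest falls. Pdlim5, a PDZ and LIM protein of actin fibres, read 12.01, 11.98 and 12.19 and later 6.3, 6.56 and 6.88 (44.7-fold lower, adjusted p = 9.1e-21), but of its 6 other probe sets only 1 was called lower and they ranged from -4.06 to 0.53. Palld, palladin, fell 7.73-fold, and all 3 of its other probe sets were also called lower. Tnc, the matrix glycoprotein tenascin C, read 12.5, 12.97 and 12.6 and later 7.9, 8.18 and 7.84 (26.3-fold lower, adjusted p = 1.3e-18), and its other probe set was also called lower. Thbs1, thrombospondin 1, which was not among these 15, fell 2.98-fold.

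TGF-beta and BMP are growth factors that act through SMAD proteins, and Notch is a receptor for signals between neighbouring cells. Of the 13 tested targets of these pathways 7 fell and 3 rose (median -0.51; after centring 10 lower and 0 higher). Id2, an inhibitor of bHLH factors, read 9.83, 9.19 and 9.2 at 0-30 min, 11.73, 12.3 and 11.94 at 30-60 min and 11.54, 11.5 and 11.46 at 150-180 min. It fell by 0.49 ± 0.19 after 30-60 min (adjusted p = 0.028), a call lost without replicate 2 or 3 of 150-180 min or replicate 2 of 30-60 min (adjusted p = 0.058 to 0.17), but was still 2.1 ± 0.19 above the first window (adjusted p = 4.1e-09). Id1 showed the same order with means of 10.62, 12.13 and 11.39, and its fall of 1.67-fold had adjusted p = 0.0024. The median level of the 4 Id genes was 9.9, 12 and 11.26 in the 3 windows. The repressor Tgif1 fell 3.26-fold and was also below the first window (-1, adjusted p = 0.015), and Skil, which holds SMADs in check, 1.87-fold, though the single other probe set of Skil was not called. Smad6, Bambi and Ski were called higher, by 1.06 ± 0.3, 0.53 ± 0.17 and 0.41 ± 0.18; after centring none of the 3 was called, and Bambi and Ski were below 0. Bambi lost its call without replicate 3 of 30-60 min (0.41), and Ski without replicate 1 or 3 of 150-180 min or replicate 1 or 2 of 30-60 min (0.33 to 0.4). Hes1, a Notch target, gave -0.47 ± 0.24 (adjusted p = 0.084), and it was called without replicate 3 of 150-180 min (-0.65) or of 30-60 min (-0.72). After centring Hes1 was called lower (-1.07).

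In the circadian clock list 5 of 16 tested genes fell and 5 rose (median 0.13; after centring 8 lower and 2 higher). The falls were all among the 10 repressors, of which 2 rose. Per1, which serum is known to induce, read 8.29, 9.22 and 9.15 and later 7.07, 7.03 and 7.79 (3-fold lower, adjusted p = 5.8e-05), and Per2 6.68, 6.71 and 6.86 and later 5.64, 5.43 and 5.39 (2.4-fold lower, adjusted p = 8.5e-06). Bhlhe40 fell 3.57-fold, from 10.68 to 11.19 down to 9.01 to 9.17. Of the 6 activators 3 rose and 0 fell, against 54.8% and 10.3% of all genes. The rises were Hlf, 6.4-fold from background, Rora, 2.21-fold, and Clock, 2.08-fold. Of the 3 other probe sets of Clock 1 was called higher, and they ranged from -0.52 to 0.53. For Rora 2 of 4 others were called higher, and for Hlf its single other one. After centring 2 of the 6 activators were higher and 2 lower, and Clock was not called. Nr1d1, a nuclear receptor of the clock, lay below the filter in both windows (2.61 to 3.56 and 2.57 to 2.79). It was called lower without replicate 1 of 30-60 min (-0.72) and after centring (-1.07).

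Stress genes that respond to metals fell: all 4 tested did, with a median of -1.45 (after centring 4 lower). Mt2, a metallothionein that binds zinc, read 12.26, 12.21 and 12.68 and later 10.16, 10.49 and 10.62 (3.89-fold lower, adjusted p = 2.6e-11), and the zinc exporter Slc30a1 fell 2.8-fold. Hmox1, haem oxygenase, fell from 9.11, 8.9 and 8.95 to 6.57, 6.77 and 4.97 (7.36-fold), with the third array of the later window below its mates. Of the 11 NRF2 targets 4 fell and 4 rose (after centring 6 lower and 1 higher), the largest rise being Nqo1, a quinone reductase, at 2.48-fold from background.

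Regulators of RNA synthesis and processing were below the typical gene. Of 28 elongation and splicing genes 11 fell and 5 rose (median -0.26; after centring 21 lower and 1 higher). Ell2, an elongation factor, read 10, 9.97 and 10.1 and later 8.16, 8.27 and 7.98 (3.68-fold lower, adjusted p = 9.7e-08). Ccnt2, a cyclin of the elongation kinase P-TEFb, fell 2.13-fold, while Hexim1, the inhibitor of that kinase, rose from 6.97, 6.87 and 6.96 to 8.36, 8.31 and 8.24 (2.59-fold, adjusted p = 1.3e-06). Among 16 snoRNA hosts and long non-coding transcripts 5 fell and 7 rose (median 0.05; after centring 8 lower and 1 higher). Rian, a transcript of an imprinted locus, fell 4.49-fold with 1 of its 3 other probe sets, and Malat1 fell 2.99-fold, with 4 of its 6 other probe sets called lower and 1 called higher. The snoRNA host Snhg8 rose 2.28-fold.

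Cell cycle genes rose as a group. Of 52 tested 48 rose and 0 fell, with a median of 1.56 against 0.58 for all genes; after centring 38 were higher and 2 lower. The 23 genes of G2 and mitosis all rose (median 2.02; after centring 22 higher and 0 lower), and of the 25 genes of G1 and S phase 21 rose (median 1.22; after centring 14 higher and 2 lower). Aurka, a mitotic kinase, read 6.19, 5.7 and 5.71 at 30-60 min and 9.2, 9.16 and 9.03 at 150-180 min (9.61-fold higher, adjusted p = 4e-13); its other probe set, at 0.46, was not called. Plk1, the kinase that drives mitotic entry, read 4.47, 4.71 and 4.87 and later 7.74, 7.71 and 7.73 (8.24-fold higher, adjusted p = 4.7e-14). Hmmr, a spindle protein, rose 8.45-fold, and all 4 of its other probe sets were also called higher. Spindle and mitosis genes Psrc1 and Pimreg were also among the 15 largest rises called, at 10.1-fold and 8.79-fold. Ccnd1, the D-type cyclin of early G1, was at 8.82, 8.83 and 8.64 and then 9.28, 9.22 and 8.81, a difference of 0.34 ± 0.17 (adjusted p = 0.083) that was -0.27 after centring; its 2 other probe sets were called lower, and without replicate 3 of 150-180 min it was called higher (0.48). Cdkn1a, which codes for the CDK inhibitor p21, rose by 0.93 ± 0.29 and was not called after centring or without replicate 1 of 30-60 min (0.59). The linker histone gene H1f2 rose 7.46-fold and the variant H2ax 4.06-fold.

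Promoters of mitotic genes often hold the cell cycle homology region, TTTGAA, and the promoter of Cdk1, the kinase of mitosis, is shown with both of its copies in capitals. It covers chr10:69352913-69353162 of GRCm38.p6, minus strand, RefSeq.
Cdk1: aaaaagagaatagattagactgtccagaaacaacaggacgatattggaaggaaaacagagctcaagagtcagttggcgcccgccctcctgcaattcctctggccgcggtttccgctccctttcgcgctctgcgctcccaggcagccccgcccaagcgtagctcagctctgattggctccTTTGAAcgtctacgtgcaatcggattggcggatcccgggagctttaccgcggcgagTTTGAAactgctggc
Its copies start at -71 and -15. The signal of Cdk1 was 9.59, 9.2 and 9.28 and later 10.87, 10.78 and 10.84, a rise of 2.77-fold (adjusted p = 2.9e-10) with the windows apart. On either strand, TTTGAA was found in 8 of the 18 G2 and mitosis genes with a promoter (44.4%), in 12.6% of all tested genes with one and in 16% of all 32851 promoters. Among all genes called higher the share with TTTGAA was 13.3% and among all genes called lower 10.9%. Among calls of log2 2 or more it was 13.8% of the rises and 17.4% of the falls. This motif was added to the search after the values had been seen.

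Genes of energy metabolism rose widely. Of 70 tested genes of oxidative phosphorylation 67 rose and 0 fell, with a median of 1.14; after centring 47 were higher and 2 lower. Ndufa6, a subunit of complex I, read 5.7, 4.75 and 5.1 and later 7.5, 7.35 and 7.54 (4.87-fold higher, adjusted p = 2e-08), and Ndufv2 rose 4.01-fold and Atp5o 3.9-fold. The median was 1.17 for 33 genes of complex I and 1.09 for 37 genes of complexes II to V. Of 43 ribosomal protein genes 35 rose and 0 fell, but their median of 0.75 was near that of all genes, and after centring 13 were higher and 6 lower. Rps24 rose most, from 11.85, 11.42 and 11.41 to 13.21, 13.02 and 12.98 (2.86-fold, adjusted p = 2.8e-12). Of 61 Myc and ribosome biogenesis genes 20 rose and 8 fell, against 54.8% and 10.3% of all genes. Their median of 0.27 was under that of all genes, and after centring 3 were higher and 23 lower. Utp20, a nucleolar processing factor, rose 2.84-fold and Cad, an enzyme of pyrimidine synthesis, 3.95-fold, whereas Odc1, the rate-limiting enzyme of polyamine synthesis and a Myc target, fell 1.98-fold. Bop1 fell 4.57-fold by the probe set with the highest signal, but its other probe set was called higher (0.67).

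Glycolysis and hypoxia genes rose in 23 of 31 and fell in 4 (median 1.3; after centring 18 higher and 5 lower). Bnip3, a target of the hypoxia factor HIF that acts in mitophagy, read 4.93, 4.67 and 4.89 at 30-60 min and 8.79, 8.65 and 8.58 at 150-180 min. The difference was 3.84 ± 0.29 (14.3-fold, adjusted p = 4.4e-12), and at 0-30 min the gene had been at 8.74, 8.87 and 8.64. Pfkl, phosphofructokinase, read 4.44, 4.39 and 3.54 and later 7.44, 7.56 and 7.63 (10.7-fold higher, adjusted p = 1.3e-10), with both other probe sets also called higher. The 4 falls in this list were Hk2, hexokinase 2 (1.74-fold), Ndrg1, a stress-responsive gene (1.63-fold), the vasodilator peptide gene Adm (2.98-fold) and Vegfa, the vascular growth factor (1.78-fold; not called without replicate 2 of 30-60 min, -0.63, nor by its other probe set). Ddit4, an inhibitor of mTOR, varied too much between arrays for a call, at 8.45, 6.93 and 5.81 and then 8.3, 9.67 and 6.94; it was called higher without replicate 3 of 150-180 min (1.92) or replicate 1 of 30-60 min (1.93).

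The core of the HIF response element is ACGTG, and 2 promoters of this list that hold it are shown with the core, on either strand, in capitals; CACGTG, the E-box, holds the core on both strands. They are Bnip3 at chr7:138909507-138909756 (minus strand) and Ldha at chr7:46845554-46845803 (plus strand), again from RefSeq on GRCm38.p6.
Bnip3: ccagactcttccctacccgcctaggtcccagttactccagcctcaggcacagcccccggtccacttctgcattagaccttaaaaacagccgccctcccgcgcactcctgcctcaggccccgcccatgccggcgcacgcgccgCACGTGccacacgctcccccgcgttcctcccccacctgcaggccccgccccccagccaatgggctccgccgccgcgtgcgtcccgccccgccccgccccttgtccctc
Ldha: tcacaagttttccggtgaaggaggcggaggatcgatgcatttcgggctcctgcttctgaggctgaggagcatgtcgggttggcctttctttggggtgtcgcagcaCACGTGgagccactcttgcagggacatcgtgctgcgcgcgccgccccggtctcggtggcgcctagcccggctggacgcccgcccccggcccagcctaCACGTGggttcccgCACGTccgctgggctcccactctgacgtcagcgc
Ldha, lactate dehydrogenase A, read 9.62, 9.57 and 9.99 and later 11, 11.03 and 11.04 (2.46-fold higher, adjusted p = 5e-09). ACGTG was found in 20 of 30 glycolysis and hypoxia genes with a promoter (66.7%), in 26.3% of all tested genes with one and in 16.6% of all promoters of the table. Both genes shown rose, but among the genes of the list with the core Hk2 and Vegfa fell, and Ddit4, Hif1a and Slc2a1 were not called. Among all genes called higher the share with the core was 26.6% and among all genes called lower 26.2%.

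Sterol and fatty acid synthesis genes rose in 26 of 29 and fell in 0 (median 0.97; after centring 16 higher and 1 lower). Mvd and Mvk, enzymes of the mevalonate pathway, rose 5.95-fold and 6-fold, Mvk from 3.7, 4.08 and 4.54 to 6.83, 6.71 and 6.54. Fdps, which makes farnesyl pyrophosphate, rose 4.42-fold. Hmgcs1, which makes HMG-CoA, rose only by 0.47 ± 0.11, and none of its 4 other probe sets was called. Insig1, the sterol sensor partner, gave 0.17 ± 0.14. After centring Hmgcs1 and Insig1 were at -0.13 and -0.43, and Insig1 was then called lower.

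Genes of the ATF4 pathway and the unfolded protein response rose in 36 of 40 and fell in 3 (median 1.01; after centring 17 higher and 3 lower). Creld2, an endoplasmic reticulum protein, read 6.34, 6.67 and 6.25 and later 9.27, 8.9 and 8.83 (5.99-fold higher, adjusted p = 1e-12), and Trib3, a pseudokinase of the same response, rose 5.11-fold. All 11 genes of the endoplasmic reticulum rose (median 1.21; after centring 5 higher and 0 lower). The falls were the factor Cebpb (2.43-fold) and the amino acid transporters Slc7a5 (1.61-fold) and Slc7a1 (1.53-fold). The call of Slc7a5 was lost without replicate 1 or 2 of 150-180 min or replicate 2 or 3 of 30-60 min, where it ranged from -0.73 to -0.34. Heat shock genes were at the level of all genes, with 14 of 21 higher, 2 lower and a median of 0.59 (after centring 7 higher and 5 lower). Hsph1, a co-chaperone, rose 3.23-fold, while Hspa8, the constitutive chaperone, was called higher by 0.24 ± 0.08 and called lower after centring (-0.37); it lost its call without replicate 1 of 150-180 min (0.22) or replicate 3 of 30-60 min (0.18).

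The factors p53 and FOXO are known to restrain growth, and their targets are set against the 54.8% of all genes called higher. Of 13 p53 targets 9 rose and 1 fell (median 0.8; after centring 5 higher and 3 lower): Ccng1, a cyclin-like gene, read 7.68, 7.54 and 7.35 and later 10.2, 10.14 and 9.91 (5.88-fold higher, adjusted p = 4.4e-12), while the death receptor gene Fas fell 2.89-fold. Among FOXO and glucose-sensing genes 9 of 18 rose and 4 fell (median 0.53; after centring 6 higher and 6 lower). Txnip, an inhibitor of glucose uptake, read 7.89, 7.41 and 8.05 and later 10.46, 10.56 and 10.61 (6.78-fold higher, adjusted p = 2.3e-11), and Ccng2, a FOXO target, rose 6.41-fold. Arrdc3, of the same arrestin family as Txnip, fell 3.29-fold and Pdk4, a kinase that blocks pyruvate oxidation, 4.39-fold.

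Fibroblast and matrix genes rose in 18 of 27 and fell in 4, against 54.8% and 10.3% of all genes (median 0.86). After centring 8 were higher and 7 lower, near the 25.6% and 28.4% of all genes. Col3a1, which codes for a fibrillar collagen, read 10.64, 10.92 and 10.79 and later 12.51, 12.57 and 12.7 (3.51-fold higher, adjusted p = 2.7e-11), and Col5a2 rose 3.79-fold. Beside Tnc the falls were Timp3, a protease inhibitor (2.03-fold), periostin, Postn (1.66-fold), and fibronectin, Fn1 (1.54-fold). Vim did not pass the test, at 13.13, 13.07 and 13.08 and then 13, 12.99 and 13.13. After centring Vim was called lower (-0.66), while 1 of its 2 other probe sets was called higher as scaled. The 3 called proteases of the Adamts family rose, Adamts5 4.45-fold, and the protease inhibitor gene Timp1 fell 1.97-fold. The largest rise of all genes was that of Msln, mesothelin, from 2.74, 3.38 and 3.64, under the filter, to 7.47, 7.6 and 7.71 (20.2-fold over background, adjusted p = 7e-16). Spon2, a secreted matrix protein, read 5.25, 5.47 and 5.69 and later 9.13, 9.36 and 9.24 (13.7-fold higher, adjusted p = 7.7e-15). Spon2 is 1 of the named genes that also exceeded the first window, by 3.32 ± 0.21 (adjusted p = 1.6e-12).

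In mock cells 17 of 51 interferon-induced genes were called higher and 1 lower, against 54.8% and 10.3% of all genes. Their median difference was 0.41, under that of all genes, and after centring 6 were higher and 9 lower. Their median level in mock was 4.06, 3.38 and 4.05 in the 3 windows, against 7.11, 6.54 and 7.15 for all genes. The median member was thus near background, as the filter at log2 4 could be met in the interferon arrays alone. The part of this in the low share of calls was not tested. Ifit1, an antiviral RNA-binding protein, read 7.43, 7.26 and 7.28 at 0-30 min, 3.74, 4.33 and 4.11 at 30-60 min and 7.07, 6.77 and 6.18 at 150-180 min (6.11-fold higher than at 30-60 min, adjusted p = 4.1e-05). Irf1, an interferon regulatory factor, rose by 0.69 ± 0.19 and was not called after centring.

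Set against the first window, the late window differed for far fewer genes. At 150-180 min minus 0-30 min 464 genes (4.86%) were higher and 466 (4.89%) lower, with a median of 0.04 over all genes; this comparison shares the 150-180 min arrays with the one above, so its values are only given side by side. The count rested on the arrays in the fit: it was 1846 in place of 930 when the 0-60 min window was left out, and 2444 with these 2 groups alone. It was 492 or 536 without replicate 1 or 2 of 150-180 min, and 571 or 504 without replicate 1 or 3 of 0-30 min. Of 46 immediate-early genes 23 were lower and 1 higher than at 0-30 min. Their median level was 11.38, 11.63 and 10.43 in the 3 windows. By contrast, the medians of oxidative phosphorylation genes were 8.82, 7.67 and 8.91, those of sterol and lipid synthesis genes 10.18, 8.82 and 10.35, and those of collagens 9.97, 9.31 and 10.22, and of these lists 0, 2 and 0 genes were called between the outer windows. G2 and mitosis genes were at 8.45, 7.04 and 9.08, with 6 of 23 higher than at 0-30 min and 0 lower. For Arc the difference from 0-30 min was -4.01 and from 30-60 min -4.01, for Vcl 0 and -2.45, for Bnip3 -0.08 and 3.84, and for Hmox1 -0.83 and -2.88.

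**Figure D3:**
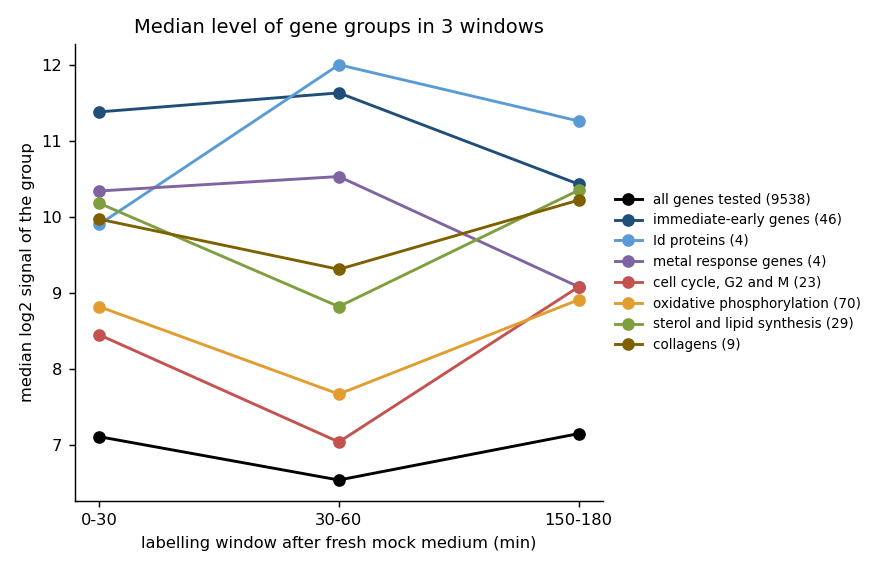
Median log2 signal (y axis) of 8 gene groups in mock cells by labelling window (x axis, min after fresh medium; number of tested genes in brackets), each point the median over genes of the mean of 3 arrays. Levels are to be read along a line and not between lines: the median of all genes dips at 30-60 min (7.11, 6.54 and 7.15), and immediate-early genes, Id proteins and metal response genes are lower at 150-180 min than at 30-60 min.

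The same interval in interferon-treated cells, measured on other arrays of the series, gave a like pattern. On the first principal component the interferon arrays of 30-60 min lay at 49 to 69.1 and those of 150-180 min at -42 to -28.4. They thus stood apart on it as the mock arrays did, and the part of this in the likeness was not tested. With IFN alpha 5137 genes (53.9%) were higher and 904 (9.48%) lower, 63.3% together, and with IFN gamma 5305 (55.6%) and 885 (9.28%), 64.9% together. After centring, 2203 genes were higher and 2592 lower with IFN alpha, and 2157 and 2524 with IFN gamma. The excess of rises thus depended on the scaling here as well. Of the 978 genes that fell in mock, 748 fell with IFN alpha (76.5% of the mock falls and 82.7% of its own) and 689 with IFN gamma (70.4% and 77.9%). Across the 9538 genes the mock differences correlated with those of IFN alpha at r = 0.914 and of IFN gamma at r = 0.872, as a description over genes, which are not independent; all 3 comparisons were scaled together. Of 46 immediate-early genes 33 fell and 0 rose with IFN alpha (median -0.78), and 25 fell and 1 rose with IFN gamma (median -0.44). Cell cycle genes rose in 48 and 50 of 52, with medians of 1.51 and 1.6. The change over the interval differed from that in mock, by limma's interaction term, for 47 genes with IFN alpha (0.493%) and 176 with IFN gamma (1.85%). It was more positive than in mock for 0.451% and more negative for 0.0419% of genes with IFN alpha, and for 1.25% and 0.598% with IFN gamma. Without the 0-60 min window these counts were 87 and 353. Among named genes Irf1 rose in mock (0.69) and fell with IFN alpha (-2.19), and Bnip3 rose less with IFN gamma (1.74) than in mock (3.84).

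**Figure D4:**
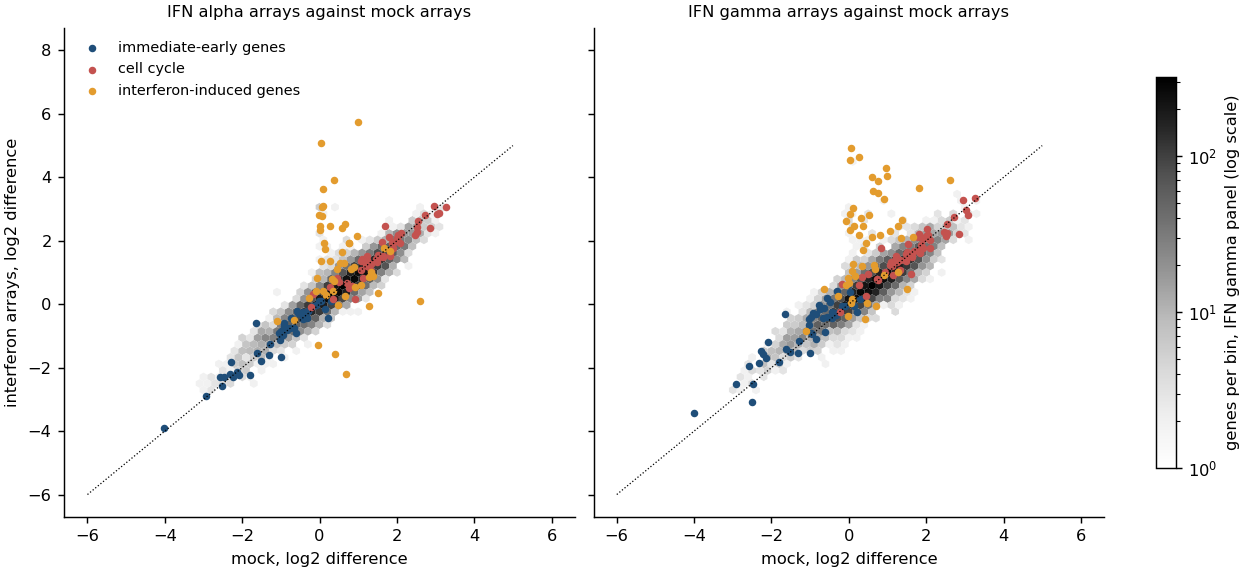
Log2 difference between 150-180 and 30-60 min in interferon-treated cells (y axis; IFN alpha left, IFN gamma right) against that in mock cells (x axis) for 9538 genes; grey shade counts genes per bin on a log scale, coloured points are 3 gene lists and the dotted line marks equal differences. Most genes lie along the line (r = 0.914 and 0.872 across genes), while interferon-induced genes lie above it in many cases.

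Probe sets that carry no gene symbol moved the other way from the named genes. Of 3372 such probe sets that passed the filter 2218 (65.8%) were lower and 433 (12.8%) higher at 150-180 min, with a median of -1.19; over all 21858 probe sets kept 23.3% were lower and 40.2% higher, 63.5% together. The medians for the same unnamed probe sets were -0.93 with IFN alpha and -0.98 with IFN gamma. Probe sets of 1 symbol designed on a RefSeq accession had a median of 0.71 and 7.33% lower, and those of 1 symbol on other accessions 0.36 and 17.5%. Where a gene had more than 1 kept probe set, 593 of 4801 genes (12.4%) held probe sets called in opposite directions. Of the 639 genes called lower that had another kept probe set, 403 had another called lower and 92 had one called higher.

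**Figure D5:**
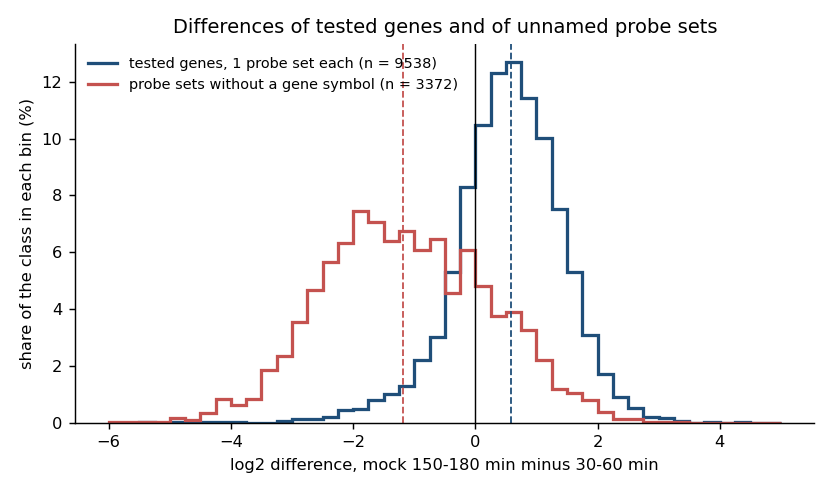
Share of each class (y axis, %) by log2 difference between 150-180 and 30-60 min in mock (x axis, bins of 0.25) for 9538 tested genes and 3372 probe sets without a gene symbol; dashed lines are the medians, 0.58 and -1.19, and the solid line is 0. The unnamed probe sets lie mostly below 0 and the tested genes mostly above it.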

How the data were processed

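The deposited values are log2 signals of 45101 Affymetrix probe sets on 36 arrays of newly transcribed RNA, computed by the authors; the submitters' processing notes name GCRMA, and its version, and the genome build, are not given in the sources used here. GCRMA corrects background and normalizes all arrays together, so an equal overall distribution between windows is partly imposed. Depth does not apply to arrays; their number, 3 per group, limits the precision. Each array was shifted to a common median over all probe sets (largest shift 0.09). Of 34958 probe sets with 1 gene symbol, those above log2 4 in at least 3 arrays were kept, and the probe set with the highest mean stood for its gene, giving 9538 genes. All 36 arrays in 12 groups entered limma 3.58.1 (R 4.3.3) with group means and an intensity trend; p-values were adjusted by Benjamini-Hochberg over all 9538 genes and called under 0.05. The script was tested on simulated data. Named genes were a fixed panel, the 15 largest called rises and falls with arrays apart (mean log2 in the higher window 6 or more), and from each list the 3 called members with the largest change either way; other members are named from a whole list or chosen after their values were seen. Panel genes without a tested probe set of a single symbol are not reported here. The comparison and the gene lists were chosen with earlier results of these data known. Promoters (250 bases before the start) are those of RefSeq, GRCm38.p6; 9504 tested genes matched a gene ID there, and 7803 had a promoter. Scalings, filters, array weights, replicate block and leaving out each array were tried as alternatives.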

Additional observations from a re-analysis of the deposited data

Results flagged for a closer look

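The change between 30-60 and 150-180 min differed from that in mock cells for 9 of the named genes in interferon-treated cells, by limma's interaction term with Benjamini-Hochberg adjustment over all genes (IFN alpha or gamma minus mock, log2, ± SE). With IFN alpha, Irf1 differed by -2.88 ± 0.27 (adjusted p = 3.5e-09), as it rose by 0.69 in mock and changed by -2.19 there. With IFN gamma, Bnip3 differed by -2.11 ± 0.41 (adjusted p = 0.002; 3.84 in mock and 1.74 with IFN gamma), Txnip by -1.42 ± 0.32 (adjusted p = 0.0095; 2.76 and 1.34), the factor Nfatc1 by -1.69 ± 0.36 (adjusted p = 0.0055; 3.1 and 1.42) and Trib3 by -1.07 ± 0.27 (adjusted p = 0.023; 2.35 and 1.28), so these rises were smaller. The falls were smaller for Lif, which differed by 1.81 ± 0.4 (adjusted p = 0.0072; -2.39 and -0.58), Ccl7 by 1.92 ± 0.45 (adjusted p = 0.011; -2.2 and -0.28), Tnc by 1.05 ± 0.26 (adjusted p = 0.025; -4.71 and -3.67) and Timp3 by 0.72 ± 0.15 (adjusted p = 0.0045; -1.02 and -0.3).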

How the results depend on the processing

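Of the 158 named genes called, 117 kept their call and direction in every alternative run; over these called genes 3513 of 3630 fits did so, 111 lost the call and 6 reversed, and the 9 named genes not called reversed in 5 fits. Centring on the tested genes, chosen after seeing the data, gave 2439 higher and 2709 lower in mock, and turned Hmgcs1 (-0.13), Insig1 (-0.43), Ccnd1 (-0.27), Hspa8 (-0.37), Dusp8 (-0.1), Flna (-0.04), Bambi (-0.07) and Ski (-0.19) below 0. Dusp1, Nr1d1, Hes1, Acta2, Ankrd1 and Vim, not called as scaled, were called lower under this centring. Other scalings gave 5725 to 6127 calls. With all kept probe sets of 1 symbol the counts were 10881 in mock (8042 higher, 2839 lower), 10381 with IFN alpha, 10554 with IFN gamma, 75 for IFN alpha minus mock and 1682 against 0-30 min. A 2-fold minimum left 3263 (2821 higher, 442 lower), 3015, 2998 and, against 0-30 min, 255. The differences from mock were 87 and 353 without the 0-60 min window and 880 and 961 with array weights, and the count against 0-30 min was 1846 and 3926; with only its own groups it was 2444. Ankrd1, not called, was at 0.01 with array weights and -0.12 to 0.05 with 1 array left out (0.05 without replicate 1 of mock 30-60 min), and Dusp1, not called, at -0.25 to 0.06 (0.06 without replicate 3 of mock 30-60 min). Leaving out 1 array at a time gave 5594 to 6668 calls in mock (4728 to 5554 higher, 854 to 1114 lower), 5349 to 5849 with IFN alpha, 5544 to 5893 with IFN gamma, 39 to 47 and 135 to 172 for the differences, and 492 to 739 against 0-30 min. Same-numbered arrays of the windows correlated at 0.02, 0.01 and 0.24, and differently numbered ones at -0.21 to 0.14. With 3 arrays per window, these values cannot decide whether the numbers pair the arrays. A replicate block gave 6288 calls in mock (5291 higher, 997 lower). With only the groups compared, the block gave 321 for IFN gamma minus mock and 3056 against 0-30 min. The cause of these shifts was not tested. Signals under log2 4 are near background, so folds from there are imprecise.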

Other observations

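The difference between the windows varied with the level and the length of the gene. The median log2 difference was 0.77 for 3166 genes with a mean level of 5 to 7 and 0.14 for 319 genes above 11, where 26.6% were lower. For gene span in GRCm38.p6 the median was 0.73 for 2215 genes under 10 kb and 0.36 for 1200 genes above 100 kb, with 7.67% and 15.3% lower. With IFN alpha the same span classes had medians of 0.66 and 0.32, and with IFN gamma 0.71 and 0.3.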
